A study of Mus musculus with 8 samples.

Results

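The testis transcript Nupr1l, a relative of the stress-induced Nupr1, was followed across RNA-seq libraries of mouse testis together with 9 genes of the integrated stress response (Nupr1, Atf4, Ddit3, Trib3, Chac1, Asns, Hspa5, Xbp1 and Atf5). The genes were found by their Ensembl identifiers. The 10 symbols matched 11 of the 55421 identifiers, because Ddit3 is listed under 2. Of these 11 identifiers, 10 passed the filter on low counts, and the second Ddit3 identifier, with 1 or 2 counts per library, was not tested. Nupr1l was chosen by its own measured levels in the 4 groups, low after LPS and alike elsewhere, so its levels are given as a description without a test. The other 9 genes were chosen by function, with earlier results of these data known. They were tested, to see whether they follow the pattern of Nupr1l.

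The study holds 8 libraries of testis from wild-type (WT) male mice, 2 in each of 4 groups. The LPS+DHEA+Nb group received LPS (lipopolysaccharide, from the outer membrane of bacteria, which sets off inflammation) and 6 h later the androgen precursor dehydroepiandrosterone (DHEA) together with Nb23-bi, an agent that the labels do not describe. The LPS+DHEA group received LPS and, 6 h later, DHEA alone, the LPS group received LPS, and the CTRL group received phosphate-buffered saline. The sources used here do not give strain, age, doses or the time of tissue collection. Nor do they say if the 2 libraries of a group came from separate animals. Errors and p-values therefore cover differences from library to library, which may be technical. The labels give a second injection only for the DHEA groups, so an effect of DHEA and an effect of that injection cannot be told apart.

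Depth was 61.3 to 64.5 M counts per library, and 30142 to 30626 genes were detected with 1 count or more. The extraction text names islets, while the tissue label is testis. The summed level of 10 spermatid markers was 16700 to 19600 CPM (counts scaled to the library total) in the 8 libraries, and that of 8 epididymis markers was 3.37 to 6.09 CPM, with Lcn5 at 0 in every library. Values below are in CPM, with n = 2 libraries per group for each mean and SD. Log2 fold changes and their standard errors (SE) come from edgeR's quasi-likelihood fit over 26414 genes, and a gene was called at a Benjamini-Hochberg adjusted p under 0.05.

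The integrated stress response begins when one of several kinases phosphorylates the translation factor eIF2alpha, which lowers general protein synthesis while the mRNA of the transcription factor ATF4 is translated more. ATF4 then switches on genes of amino acid supply, redox balance and cell fate, among them Asns, Trib3, Chac1, Ddit3 and Nupr1. Because ATF4 itself is raised mainly at translation, its mRNA need not change when the response is on. Stress of the endoplasmic reticulum (ER) feeds into the same response through the kinase PERK, and in parallel through ATF6 and XBP1, which raise chaperones such as Hspa5.

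Nupr1l was an abundant transcript of testis, with low levels in both LPS libraries. It is listed as ENSMUSG00000095789, on the plus strand at chr5:129908540-129913789 (GRCm38). Its level was 195 and 175 CPM in LPS+DHEA+Nb, 176 and 175 CPM in LPS+DHEA, 63.6 and 55.2 CPM in LPS, and 171 and 182 CPM in CTRL. Both LPS libraries lay below the other 6, and the lowest of those 6 was 2.68 times the higher LPS library. Per kilobase of exon, Nupr1l ranked 1208th of 26359 genes by mean CPM per kb.

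The group means of Nupr1l were 185 ± 13.9 CPM in LPS+DHEA+Nb, 175 ± 0.568 CPM in LPS+DHEA, 59.4 ± 5.91 CPM in LPS and 176 ± 7.69 CPM in CTRL (SD). The LPS mean was 32.1% of the LPS+DHEA+Nb mean, 33.9% of the LPS+DHEA mean and 33.7% of the CTRL mean. The 6 libraries outside LPS spanned 1.14-fold, with a coefficient of variation of 4.85%. The 3 groups other than LPS were therefore not separated from one another beyond the spread of their libraries. The log2 fold change of Nupr1l was -1.57 (SE 0.09) for LPS versus CTRL, and leaving out any 1 library kept it between -1.67 and -1.47. It was 1.56 for LPS+DHEA versus LPS and 1.64 for LPS+DHEA+Nb versus LPS, comparisons that share the LPS libraries with the first. Against CTRL, it was 0.07 for LPS+DHEA+Nb and -0.01 for LPS+DHEA. Nupr1l was chosen for this pattern in the same libraries, so the SE and the range describe it and lend it no support. In whole tissue, fewer cells of a type that express a gene and less of its RNA per cell cannot be told apart.

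The levels of 11 lists of cell type markers were set beside this pattern. In summed CPM, which the most abundant markers of a list carry, the LPS libraries overlapped the other 6 in each list, but single markers differed between LPS and CTRL. Spermatid markers summed to 18100 and 18400 CPM in LPS+DHEA+Nb, 16700 and 18300 CPM in LPS+DHEA, 16700 and 17400 CPM in LPS, and 19000 and 19600 CPM in CTRL. Leydig cell markers summed to 957 and 836 CPM in LPS+DHEA+Nb, 658 and 638 CPM in LPS+DHEA, 738 and 708 CPM in LPS, and 882 and 1030 CPM in CTRL. The Leydig sums were thus low in both LPS and LPS+DHEA, whereas Nupr1l was low in LPS. In LPS versus CTRL, 6 of 8 Leydig markers had an unadjusted p under 0.05, against 7.11% of all genes. The list median log2 fold change was -0.88, and edgeR called 0 of 8. Peritubular myoid markers, of the contractile cells around the tubules, summed to 142 and 137 CPM in LPS+DHEA+Nb, 197 and 224 CPM in LPS+DHEA, 222 and 216 CPM in LPS, and 138 and 128 CPM in CTRL. Their sums were high in both LPS and LPS+DHEA and did not overlap those of LPS+DHEA+Nb and CTRL. All 6 myoid markers were higher in LPS versus CTRL at an unadjusted p under 0.05 (list median log2 fold change 0.54), and smooth muscle actin, Acta2, was called (1.1, edgeR adjusted p = 0.000737). All 6 were lower in LPS+DHEA+Nb versus LPS at an unadjusted p under 0.05 (list median -0.65), with 1 called. In that comparison 6.56% of all genes had an unadjusted p under 0.05. Neutrophil markers were scarce, with sums of 1.2 and 2.11 CPM in LPS+DHEA+Nb, 7.6 and 3.53 CPM in LPS+DHEA, 7.56 and 4.49 CPM in LPS, and 1.58 and 1.25 CPM in CTRL. Of the 10 listed neutrophil markers, 7 passed the low-count filter. A marker near 0 in CTRL passes only through groups where it is high, so the filter partly set the direction of these 7. All 7 were higher in LPS versus CTRL, and S100a8 was called (edgeR adjusted p = 0.0237) on CTRL counts near 0. The other lists covered Sertoli cells, macrophages, endothelium, spermatogonia, spermatocytes, epididymis and red blood cells. Red blood cell markers summed to 39.1 and 32.1 CPM in LPS, against 37.3 to 71.7 CPM in the other 6 libraries. In LPS versus CTRL, edgeR called no marker of these lists. An unadjusted p under 0.05 was found for 4 of 10 macrophage markers (log2 fold changes from -1.35 to 1.22), 2 of 10 Sertoli and 2 of 8 endothelial markers. It was also found for 1 of 9 spermatogonia, 2 of 8 spermatocyte, 1 of 5 red blood cell and 0 of 2 tested epididymis markers. Of the 10 spermatid markers, 4 had such a p. The part of cell composition in the Nupr1l values was not tested.

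**Figure D1:**
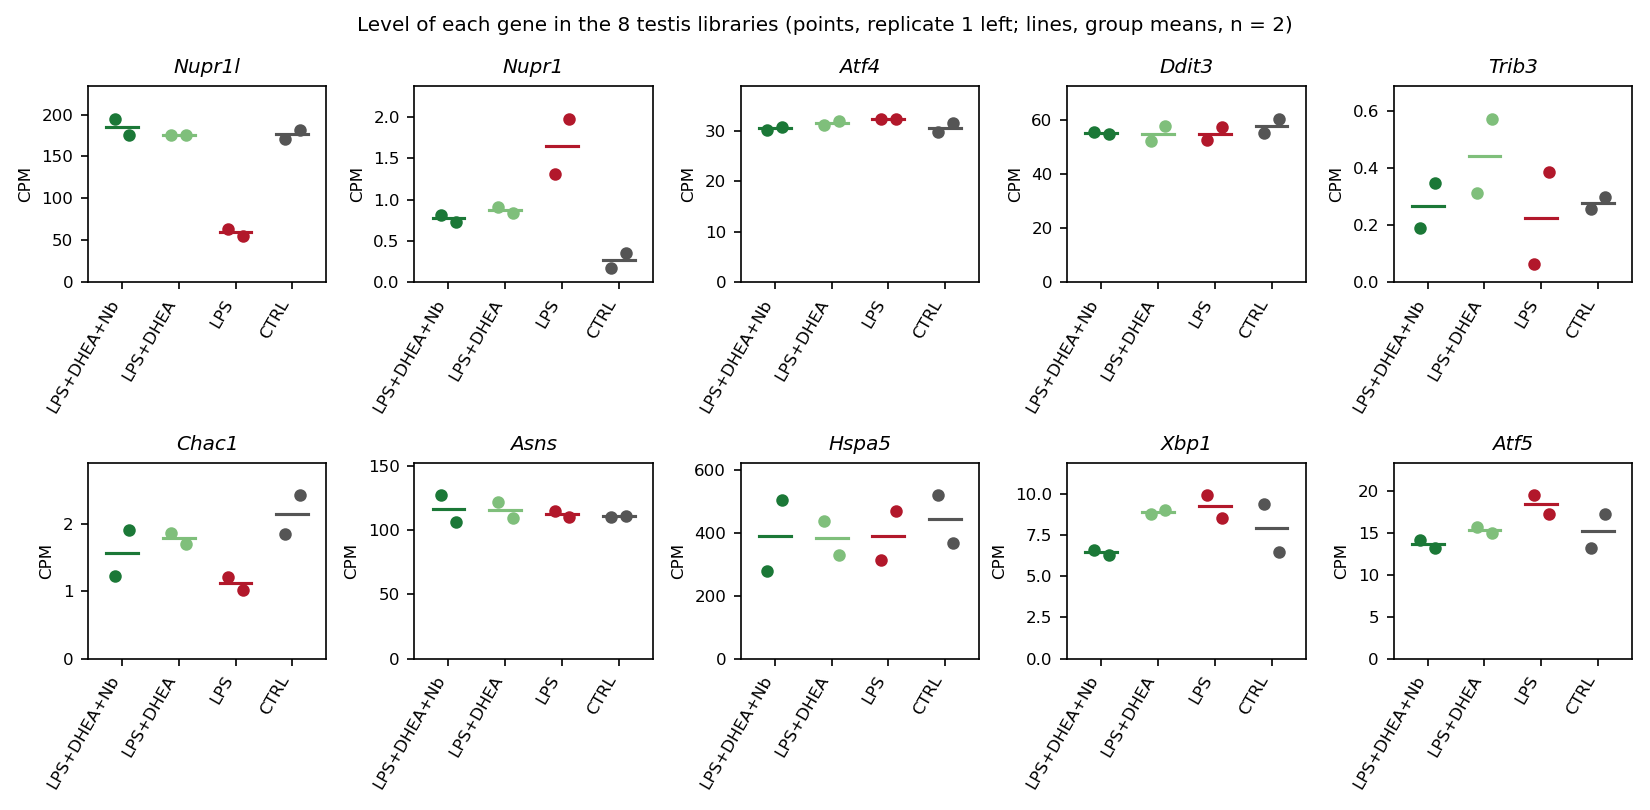
Levels of the 10 genes in each of the 8 libraries, in CPM on linear axes that start at 0, with a panel per gene, a point per library and a line at each group mean. Nupr1l lies at 55.2 to 63.6 CPM in LPS and at 171 to 195 CPM elsewhere, while Atf4, Ddit3 and Asns stay near 1 level.

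No annotated gene overlaps Nupr1l. The 7 annotated genes within 50 kb include Zbed5, 4917 bases away, with 10.5 ± 0.763 CPM in LPS+DHEA+Nb, 10.9 ± 0.374 in LPS+DHEA, 10.6 ± 1.12 in LPS and 10.7 ± 0.0666 in CTRL. Chchd2, which encodes a mitochondrial intermembrane protein, had 143 ± 2.43 CPM in LPS+DHEA+Nb, 134 ± 4.11 in LPS+DHEA, 131 ± 10.7 in LPS and 132 ± 9.43 in CTRL. Neither of these had lower values in LPS beyond the spread of the libraries. Vkorc1l1, which encodes a vitamin K epoxide reductase, lies 28181 bases downstream on the same strand. Vkorc1l1 had 1266 and 1183 counts in LPS+DHEA+Nb, 1880 and 718 in LPS+DHEA, 1002 and 952 in LPS, and 209 and 165 in CTRL. Its counts were higher in all 6 libraries that received LPS than in CTRL, with a log2 fold change of 2.39 for LPS versus CTRL that did not pass (SE 0.45, edgeR adjusted p = 0.23). Sumf2 (log2 fold change -0.01, edgeR adjusted p = 0.997) and Phkg1 (0.48, edgeR adjusted p = 0.956) did not pass in LPS versus CTRL, and the unnamed gene models Gm42790 and Gm42986 had 0 to 16 counts per library.

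Nupr1, the better known relative, encodes a small chromatin protein induced by cell stress. Its gene lies on the minus strand at chr7:126623249-126630861 (GRCm38). Nupr1 was scarce, with 52 and 46 counts in LPS+DHEA+Nb, 58 and 51 counts in LPS+DHEA, 83 and 124 counts in LPS, and 11 and 23 counts in CTRL. These are 0.818 and 0.726 CPM in LPS+DHEA+Nb, 0.908 and 0.834 CPM in LPS+DHEA, 1.31 and 1.98 CPM in LPS, and 0.176 and 0.359 CPM in CTRL. Both LPS libraries were above the other 6, by at least 1.44 times, and the 4 DHEA libraries were at least 2.02 times the higher CTRL library.

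For LPS versus CTRL the log2 fold change of Nupr1 was 2.61 (SE 0.47, 95% interval 1.58 to 3.64), and its edgeR adjusted p of 0.0544 missed the threshold. Over 17 alternative analyses that adjusted p ranged over 0.00227 to 0.272. It passed in 3 of them, namely with counts divided by 4 (0.0495), with DESeq2 (0.00227) and with no low-count filter (0.0175). LPS+DHEA+Nb versus LPS gave -1.09 (95% interval -2.04 to -0.13, edgeR adjusted p = 0.701), and LPS+DHEA versus LPS gave -0.92 (95% interval -1.87 to 0.03, edgeR adjusted p = 1). LPS versus the mean of the other 3 groups gave 1.54 (edgeR adjusted p = 0.175). Against CTRL, LPS+DHEA+Nb gave 1.52 (edgeR adjusted p = 1) and LPS+DHEA gave 1.69 (edgeR adjusted p = 0.427). The values of Nupr1 were thus high where those of Nupr1l were low, but in the DHEA groups they stayed between the LPS and CTRL levels, while Nupr1l was at its CTRL level there.

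The ratio of Nupr1l to Nupr1, in CPM, was 238 and 242 in LPS+DHEA+Nb, 194 and 210 in LPS+DHEA, 48.7 and 27.9 in LPS, and 971 and 505 in CTRL. The 4 groups did not overlap in this ratio, and it was lowest in LPS and highest in CTRL. Its size in CTRL rests on 11 and 23 counts of Nupr1, and its low value in LPS partly on Nupr1l, which was chosen for that.

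**Figure D2:**
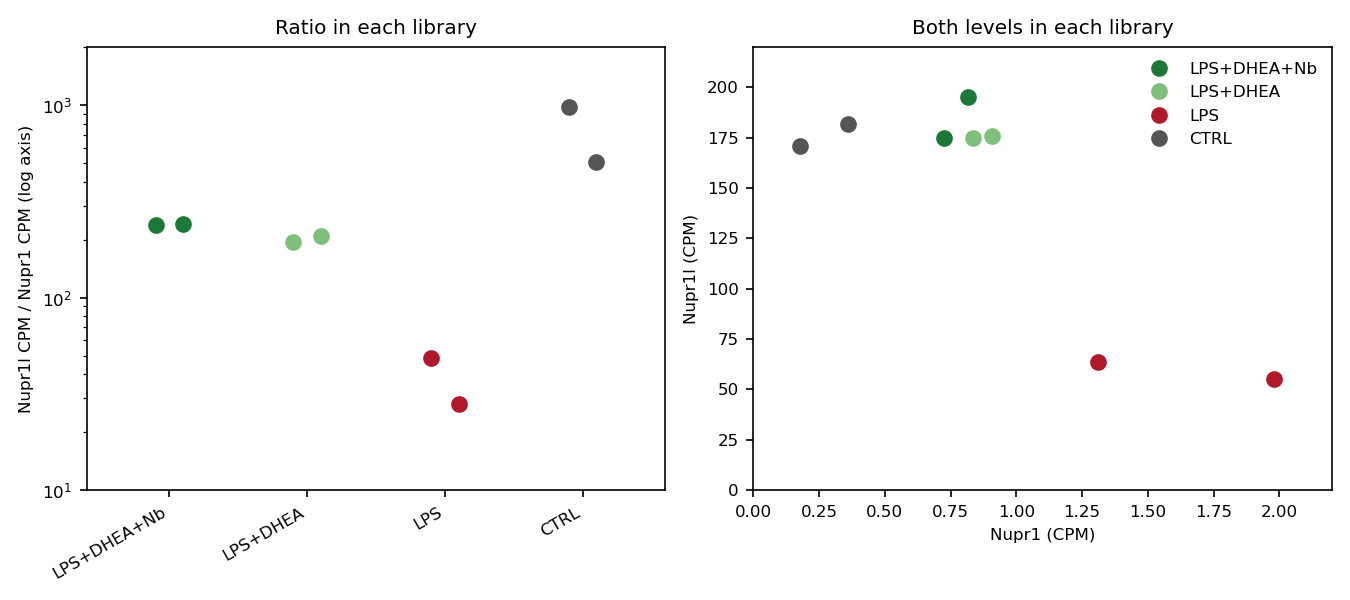
Left, the ratio of Nupr1l to Nupr1 in each library on a log axis; right, Nupr1l against Nupr1 in CPM, a point per library. The LPS libraries lie at 27.9 and 48.7 in the ratio, below the 4 DHEA libraries (194 to 242) and the CTRL libraries (505 and 971).

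The promoter windows searched for these 2 genes differed in the letters that ATF4 is known to bind. Windows of 300 bases around gene starts, 250 before and 50 after, were read from RefSeq on GRCm38.p6, and the 10 symbols had 11 windows. The C/EBP-ATF response element, bound by dimers of ATF4 and C/EBP factors, was searched on both strands as TGATGNAA. It was in the windows of Asns, Chac1, Nupr1 and Trib3, 4 of 11, and in 3.97% of all 32851 windows. The Trib3 match lies after the start. The window of Nupr1l held no match, and neither did those of Ddit3, Atf4, Atf5, Hspa5 and Xbp1. Ddit3 is named above as a target of ATF4, so lacking a match in this window is not particular to Nupr1l. The Nupr1l window held 2 CCAAT boxes, whose letters CCAAT were in 37.4% of all windows. The 250 bases before each start are shown to let this difference be read, with CCAAT boxes in capitals for Nupr1l (chr5:129908290-129908539, plus strand) and the response element in capitals for Nupr1 (chr7:126625471-126625720, minus strand). The GENCODE M21 gene model, used here for gene coordinates, reaches further upstream for Nupr1 than this RefSeq start.
Nupr1l: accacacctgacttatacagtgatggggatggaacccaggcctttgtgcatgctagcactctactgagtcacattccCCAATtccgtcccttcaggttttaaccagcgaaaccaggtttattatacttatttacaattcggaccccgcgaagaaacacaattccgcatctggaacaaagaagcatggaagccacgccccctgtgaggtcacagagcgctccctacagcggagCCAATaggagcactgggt
Nupr1: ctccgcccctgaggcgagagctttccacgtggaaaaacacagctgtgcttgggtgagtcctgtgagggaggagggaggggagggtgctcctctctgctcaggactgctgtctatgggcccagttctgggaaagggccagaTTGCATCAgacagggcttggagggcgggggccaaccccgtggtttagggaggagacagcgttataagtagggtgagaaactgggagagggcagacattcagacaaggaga

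The matches in genes with a known response to ATF4 or to ER stress are shown with 10 bases on either side, the match in capitals, for Nupr1 (chr7:126625563-126625590, minus strand), Chac1 (chr2:119351039-119351066, plus strand), Asns (chr6:7693215-7693242, minus strand) and Hspa5 (chr2:34772015-34772053, plus strand). Nupr1 and Chac1 hold the same 8 letters, which are the element read on its other strand. The Hspa5 match is the ER stress response element, CCAAT and CCACG with 9 bases of any kind between them, bound by ATF6 with NF-Y, whose first letters are also a CCAAT box. It was in 0.119% of all windows and in no other of the 11.
Nupr1: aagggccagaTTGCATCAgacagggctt
Chac1: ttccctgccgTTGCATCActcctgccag
Asns: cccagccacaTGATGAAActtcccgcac
Hspa5: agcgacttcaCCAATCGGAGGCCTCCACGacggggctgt

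The C/EBP dimer element TTGCNNAA, in 10.8% of all windows, was found in that of Xbp1. The cAMP response element TGACGTCA (1.79% of windows) and the unfolded protein response element TGACGTGG (0.676%) were in none of the 11. A match of letters is a description and does not show binding.

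Among the transcription factors of the response, Atf4 hardly varied. Atf4, the central factor, had 30.2 and 30.8 CPM in LPS+DHEA+Nb, 31.2 and 31.9 CPM in LPS+DHEA, 32.3 and 32.4 CPM in LPS, and 29.8 and 31.5 CPM in CTRL. Both LPS libraries were above the other 6, but all 8 lay within 1.09-fold. The log2 fold change for LPS versus CTRL was 0.08 (SE 0.09, 95% interval -0.12 to 0.28, edgeR adjusted p = 0.94).

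Atf5, a factor of the same family that responds to mitochondrial and ER stress, had 14.2 and 13.2 CPM in LPS+DHEA+Nb, 15.7 and 15 CPM in LPS+DHEA, 19.5 and 17.3 CPM in LPS, and 13.2 and 17.3 CPM in CTRL. The LPS libraries were above the other 6 in CPM, the lower one by a margin lost in rounding, and they overlapped them in unscaled counts. The log2 fold change was 0.27 for LPS versus CTRL (95% interval -0.05 to 0.59, edgeR adjusted p = 0.779) and -0.43 for LPS+DHEA+Nb versus LPS (95% interval -0.75 to -0.11, edgeR adjusted p = 0.589). Exons of Atf5 share 82 bases with each of Nup62 and Il4i1 on the opposite strand, and Nup62 varied between 6156 and 16280 counts. The sources used here give no strand setting for the counting, so the part of Nup62 reads in Atf5 was not tested.

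Ddit3, which encodes the pro-apoptotic factor CHOP, had 55.8 and 55 CPM in LPS+DHEA+Nb, 52.4 and 57.8 CPM in LPS+DHEA, 52.8 and 57.4 CPM in LPS, and 55.3 and 60.6 CPM in CTRL. The groups overlapped, and the log2 fold change for LPS versus CTRL was -0.07 (95% interval -0.27 to 0.13, edgeR adjusted p = 0.941). Exons of Ddit3 share 68 bases with Mars on the opposite strand, and Mars had 2619 to 3328 counts per library. Per kilobase of exon, Ddit3 was at 30.6 to 35.4 CPM per kb and Atf4 at 12.6 to 13.7 CPM per kb, so Ddit3 mRNA was the more abundant of these factors in every library.

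Of the further targets of ATF4, Asns was abundant and level, while Chac1 and Trib3 were scarce. Asns, which makes asparagine, had 127 and 106 CPM in LPS+DHEA+Nb, 122 and 109 CPM in LPS+DHEA, 115 and 110 CPM in LPS, and 110 and 111 CPM in CTRL. Its groups overlapped, with a log2 fold change of 0.02 for LPS versus CTRL (95% interval -0.19 to 0.23, edgeR adjusted p = 0.988). The intervals of Atf4, Ddit3 and Asns all lie between -0.27 and 0.28 on the log2 scale.

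Chac1, which degrades glutathione, had 1.23 and 1.91 CPM in LPS+DHEA+Nb, 1.86 and 1.7 CPM in LPS+DHEA, 1.21 and 1.02 CPM in LPS, and 1.85 and 2.42 CPM in CTRL. Both LPS libraries lay below the other 6, though the nearest of those, at 1.23 CPM, was close. The log2 fold change was -0.93 for LPS versus CTRL (SE 0.33, 95% interval -1.66 to -0.21, edgeR adjusted p = 0.531) and 0.67 for LPS+DHEA versus LPS (edgeR adjusted p = 1). Chac1 thus had the sign of Nupr1l in both comparisons, without passing the test in either.

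Trib3, a pseudokinase that dampens ATF4, had 12 and 22 counts in LPS+DHEA+Nb, 20 and 35 in LPS+DHEA, 4 and 24 in LPS, and 16 and 19 in CTRL. The LPS libraries held both the lowest count and the second highest, so the groups overlapped. At this depth the 95% interval for LPS versus CTRL ran over -2.33 to 1.72 (edgeR adjusted p = 0.987), too wide to place Trib3.

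Of the ER stress genes, Hspa5 differed more within groups than between them. Hspa5, the main chaperone of the ER, had 279 and 505 CPM in LPS+DHEA+Nb, 439 and 330 CPM in LPS+DHEA, 314 and 471 CPM in LPS, and 521 and 369 CPM in CTRL. Every group held a high and a low library, and the log2 fold change for LPS versus CTRL was -0.18 with a wide 95% interval of -1.3 to 0.94 (edgeR adjusted p = 0.982). Xbp1, a factor of the unfolded protein response, had 6.59 and 6.28 CPM in LPS+DHEA+Nb, 8.78 and 8.98 CPM in LPS+DHEA, 9.9 and 8.54 CPM in LPS, and 9.35 and 6.47 CPM in CTRL. LPS and CTRL overlapped (log2 fold change 0.22, 95% interval -0.2 to 0.64, edgeR adjusted p = 0.893). LPS+DHEA+Nb lay below LPS in both libraries (-0.52, 95% interval -0.94 to -0.1, edgeR adjusted p = 0.646). Gene totals do not show the splicing of Xbp1 mRNA by which the factor is activated.

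Over the 9 tested genes, edgeR called 0 in LPS versus CTRL, where 0.295% of all genes tested were called. It likewise called 0 of 9 in LPS+DHEA versus LPS (0.0189% of all genes), in LPS+DHEA+Nb versus LPS (0.17%) and in LPS+DHEA+Nb versus LPS+DHEA (0.0871%). Against CTRL, 0 of 9 were called in LPS+DHEA (0.151%) and in LPS+DHEA+Nb (0.0303%), and 0 of 9 in LPS versus the mean of the other 3 groups (0.204%). With so few calls over all genes, a count of 0 among 9 is near the background. In LPS versus CTRL, 2 of 9 (Nupr1 and Chac1) had an unadjusted p under 0.05, against 7.11% of all genes. DESeq2 called 1 of 9, Nupr1, in LPS versus CTRL and 0 in the other comparisons, and limma-voom called 0 in each. The unadjusted count was 0 of 9 for LPS+DHEA versus LPS (3.51% of all genes), 3 for LPS+DHEA+Nb versus LPS (6.56%) and 1 for LPS+DHEA+Nb versus LPS+DHEA (4.4%). It was 1 for LPS+DHEA versus CTRL (5.72%), 1 for LPS+DHEA+Nb versus CTRL (4.28%) and 3 for LPS versus the mean of the other 3 groups (6.46%).

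Both LPS libraries lay above the other 6 in CPM for Nupr1, Atf4 and Atf5, as they did for 4.75% of all genes, and below them for Chac1, as for 4.06% of all genes. These 4 of 9 compare with 8.81% of all genes that lay apart on either side. For Atf4, Atf5 and Chac1 the margin was small. LPS had 32.3 CPM against 31.9 in LPS+DHEA for Atf4, 17.3 against 17.3 in CTRL for Atf5, and 1.21 against 1.23 in LPS+DHEA+Nb for Chac1. In unscaled counts, Atf5 overlapped. Of the 9 genes, 5 had a positive fold change in LPS versus CTRL. The median log2 fold change over the 9 was 0.02 in LPS versus CTRL and -0.03 in LPS+DHEA versus LPS, beside medians of 0 over all genes. Of the 4 with a negative fold change, Chac1 was the lowest at -0.93, against -1.57 for Nupr1l.

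**Figure D3:**
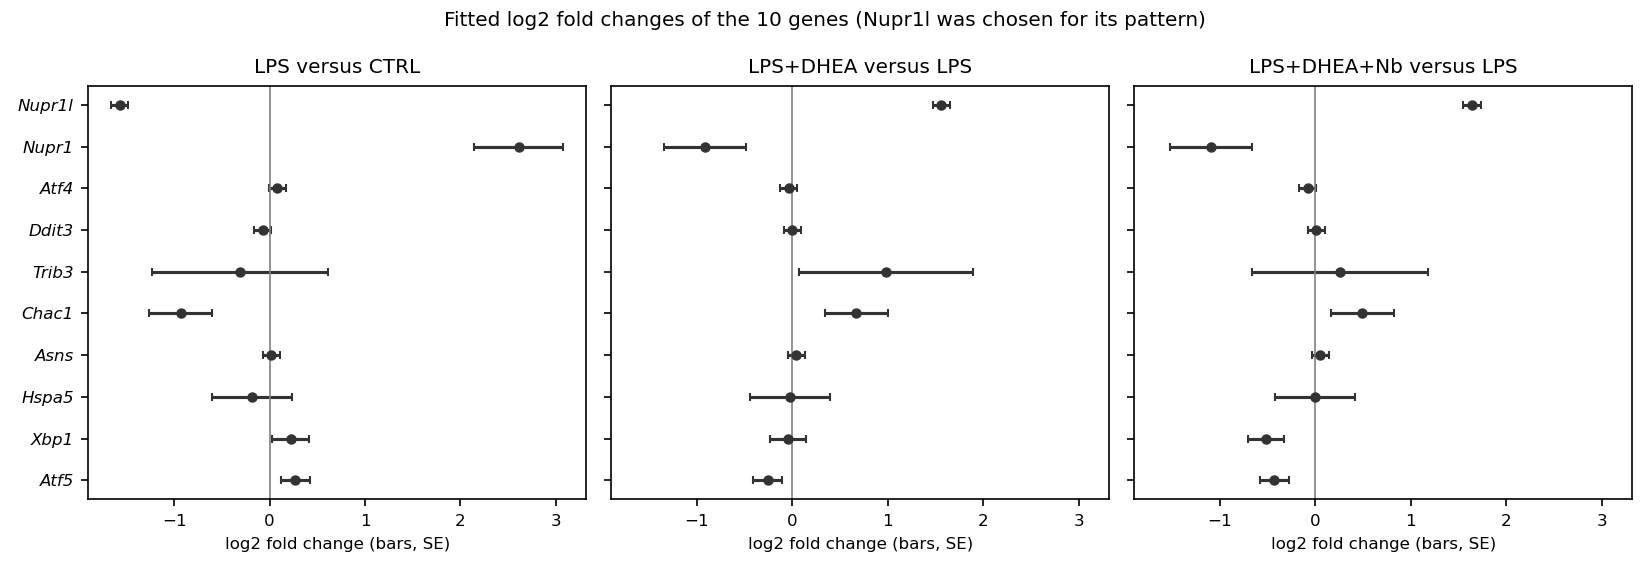
Log2 fold changes with their SE (bars) of the 10 genes in LPS versus CTRL, LPS+DHEA versus LPS and LPS+DHEA+Nb versus LPS, where 0 means no difference. Nupr1l is at -1.57, 1.56 and 1.64, Nupr1 at 2.61, -0.92 and -1.09, and Atf4, Ddit3 and Asns lie within 0.08 of 0.

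Wider lists of the pathway were tested in the same fit. Of 109 listed genes in 5 lists, 108 were tested, and edgeR called 0 of them in LPS versus CTRL (0.295% of all genes). An unadjusted p under 0.05 was found for 7 (6.48%), against 7.11% of all genes, and DESeq2 and limma-voom called 0. In the other 6 comparisons edgeR also called 0, where 0.0189% to 0.204% of all genes were called. There, 1 to 7 listed genes (0.926% to 6.48%) had an unadjusted p under 0.05, against 3.51% to 6.56% of all genes. DESeq2 called 1 gene in these 6 comparisons, Atf3 in LPS+DHEA versus CTRL. The listed genes were thus near or below the share over all genes. The median log2 fold change of the 108 in LPS versus CTRL was 0.01.

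The eIF2 list of 16 genes held its kinases, the subunits of eIF2 and eIF2B, and Dnajc3, Impact, Ppp1r15a and Ppp1r15b. The list had a median log2 fold change of -0.01 in LPS versus CTRL, with values from -0.17 to 0.22. Eif2s1, which encodes eIF2alpha itself, had 170 ± 4.49 CPM in LPS+DHEA+Nb, 160 ± 1.84 in LPS+DHEA, 150 ± 8.57 in LPS and 166 ± 6.99 in CTRL. LPS was the lowest group for Eif2s1, with a log2 fold change of -0.14 against CTRL (edgeR adjusted p = 0.73) and 0.18 for LPS+DHEA+Nb versus LPS (edgeR adjusted p = 0.671). Eif2s2, the beta subunit, was at -0.17 in LPS versus CTRL (edgeR adjusted p = 0.769).

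The ATF4 programme had 37 tested genes with a median of 0.05 in LPS versus CTRL and 25 positive values. An unadjusted p under 0.05 was found for 4 of them, against 7.11% of all genes. Cebpb, a partner of ATF4 that is also induced in inflammation, had 46 and 60 counts in LPS+DHEA+Nb, 96 and 76 in LPS+DHEA, 112 and 108 in LPS, and 30 and 58 in CTRL. LPS was above the other 6 libraries for Cebpb, with a log2 fold change of 1.33 against CTRL (SE 0.39, edgeR adjusted p = 0.367) and -1.06 for LPS+DHEA+Nb versus LPS (edgeR adjusted p = 0.645). Tars, which charges transfer RNA with threonine, had 13.1 ± 0.77 CPM in LPS+DHEA+Nb, 15.8 ± 1.4 in LPS+DHEA, 16.9 ± 2.62 in LPS and 12 ± 0.0239 in CTRL, at 0.5 for LPS versus CTRL (edgeR adjusted p = 0.328). Aldh18a1, of proline synthesis, had a mean of 7.87 ± 0.907 CPM in LPS, against means of 5.81 to 6.06 CPM in the other groups, with -0.44 for LPS+DHEA versus LPS (edgeR adjusted p = 1). Slc7a5, an amino acid transporter, was at -0.18 in LPS+DHEA+Nb versus LPS (edgeR adjusted p = 0.652).

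A further 3 genes of this programme had fitted values beyond 1 in size without passing. Gdf15, a stress hormone, had 0 and 60 counts in LPS+DHEA+Nb, 52 and 22 in LPS+DHEA, 12 and 47 in LPS, and 5 and 8 in CTRL. Atf3, an immediate early factor, had 25 and 17 counts in LPS+DHEA+Nb, 60 and 4 in LPS+DHEA, 8 and 24 in LPS, and 0 and 0 in CTRL, so its fitted fold change depends on the prior count. Slc7a3, a transporter of basic amino acids, had 23 and 13 counts in LPS against 28 and 49 in CTRL (-1.08, edgeR adjusted p = 0.795). All 6 libraries that received LPS had more Atf3 counts than CTRL, while its size against CTRL is not fixed by these counts. In Gdf15 and Atf3 the libraries of a group differed several-fold.

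The ATF6 and XBP1 programme had 30 tested genes with a median of 0.03 in LPS versus CTRL, and values from -0.16 to 0.37. Herpud1, of ER-associated degradation, had 164 ± 6.67 CPM in LPS+DHEA+Nb, 154 ± 1.73 in LPS+DHEA, 153 ± 8.84 in LPS and 171 ± 0.0697 in CTRL (-0.16 for LPS versus CTRL, edgeR adjusted p = 0.667). Sec61b, of the ER translocon, had 11.7 ± 1.99 CPM in LPS and 9.08 ± 0.59 in CTRL (0.37, edgeR adjusted p = 0.647). Atf6b was at -0.25 in LPS+DHEA+Nb versus LPS (edgeR adjusted p = 0.667).

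The mitochondrial stress list of 10 genes had a median of -0.02 in LPS versus CTRL, with values from -0.27 to 0.13, and none at an unadjusted p under 0.05. Its lowest member was Hspe1, a mitochondrial chaperonin (15 ± 0.742 CPM in LPS and 18.1 ± 3.89 CPM in CTRL, edgeR adjusted p = 0.787). The 15 p53 targets had a median of 0.01, with values from -0.27 to 0.25 and none at an unadjusted p under 0.05. Their highest member was Ccng1, a cyclin (9.48 ± 0.893 CPM in LPS and 7.97 ± 0.505 CPM in CTRL, edgeR adjusted p = 0.846).

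**Figure D4:**
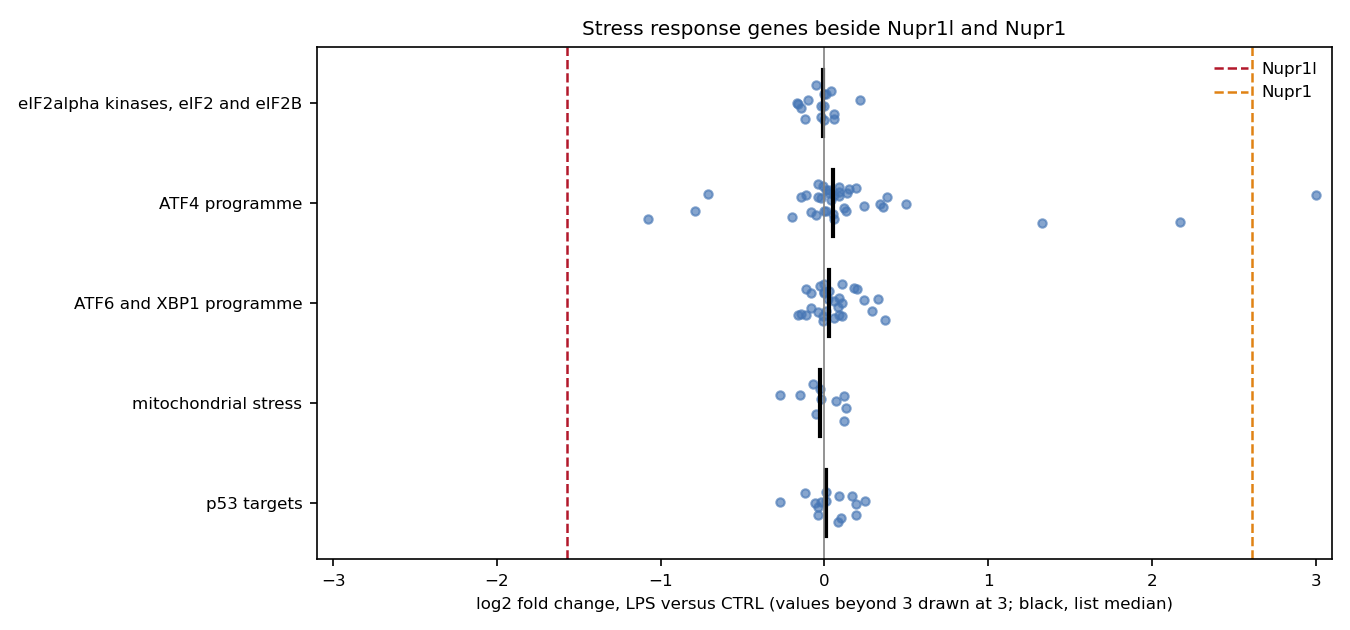
Log2 fold changes for LPS versus CTRL of the 108 tested genes in the 5 pathway lists, a point per gene, with the median of each list as a black line and dashed lines at Nupr1l (-1.57) and Nupr1 (2.61). The list medians lie between -0.02 and 0.05; values beyond 3 are drawn at 3 (Atf3, fitted at 7.02).

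The profiles of other genes over the 8 libraries were compared with that of Nupr1l. Likeness was measured as the root mean square distance between log2 CPM values centred on each gene's mean, over 18406 genes with a mean of at least 1 CPM. A gene at 1 level in all libraries would be at a distance of 0.693. Genes with Gm-number or Rik names, pseudogenes and genes without a symbol were left out of the naming. The nearest of the rest were Arrb1 (0.266), Ptn (0.287), Mrps25 (0.369), Gpatch4 (0.389) and Cdh20 (0.399). None of these 5 was on the stress lists, which hold few of the genes compared, so their absence says little about the response. Arrb1, a beta-arrestin, had 22.9 and 26.6 CPM in LPS+DHEA+Nb, 23.2 and 26.1 CPM in LPS+DHEA, 11.1 and 8.52 CPM in LPS, and 17.9 and 18.5 CPM in CTRL. The growth factor gene Ptn had 3.23 and 2.9 CPM in LPS+DHEA+Nb, 2.1 and 1.82 CPM in LPS+DHEA, 0.646 and 0.704 CPM in LPS, and 2.65 and 1.8 CPM in CTRL. In both, the LPS libraries lay below the other 6, which follows from their choice by likeness to Nupr1l and is no separate result. Their DHEA groups spread more than those of Nupr1l.

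Among the same kinds of gene, the mirrored profile, high in LPS and level elsewhere, had a closer match than the profile itself. Scd2, a fatty acid desaturase, had 46.1 and 47.3 CPM in LPS+DHEA+Nb, 49.9 and 48.6 CPM in LPS+DHEA, 168 and 162 CPM in LPS, and 55.7 and 47.8 CPM in CTRL, at a distance of 0.107 from the mirror image of Nupr1l. It was followed by Zfp788 (0.278), C1qtnf1 (0.307), Zfp629 (0.32) and Naprt (0.332). When each library was left out in turn, Scd2 stayed among the 5 mirrored genes in 8 of 8 cases and Arrb1 and Ptn among the 5 nearest in 6 of 8. The other genes on the lists stayed in 1 to 5 of 8.

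Of the 7 stress genes with a mean of at least 1 CPM, Chac1 was nearest to Nupr1l, at a distance of 0.488 and rank 89 of 18406. Atf5 was nearest to the mirrored profile, at 0.575 and rank 647. Ddit3, at 0.686, and Asns, at 0.684, were about as far as a level gene, and Atf4 (0.722), Hspa5 (0.771), Atf5 (0.838) and Xbp1 (0.843) were farther. Nupr1 and Trib3, under 1 CPM on average, were not ranked.

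**Figure D5:**
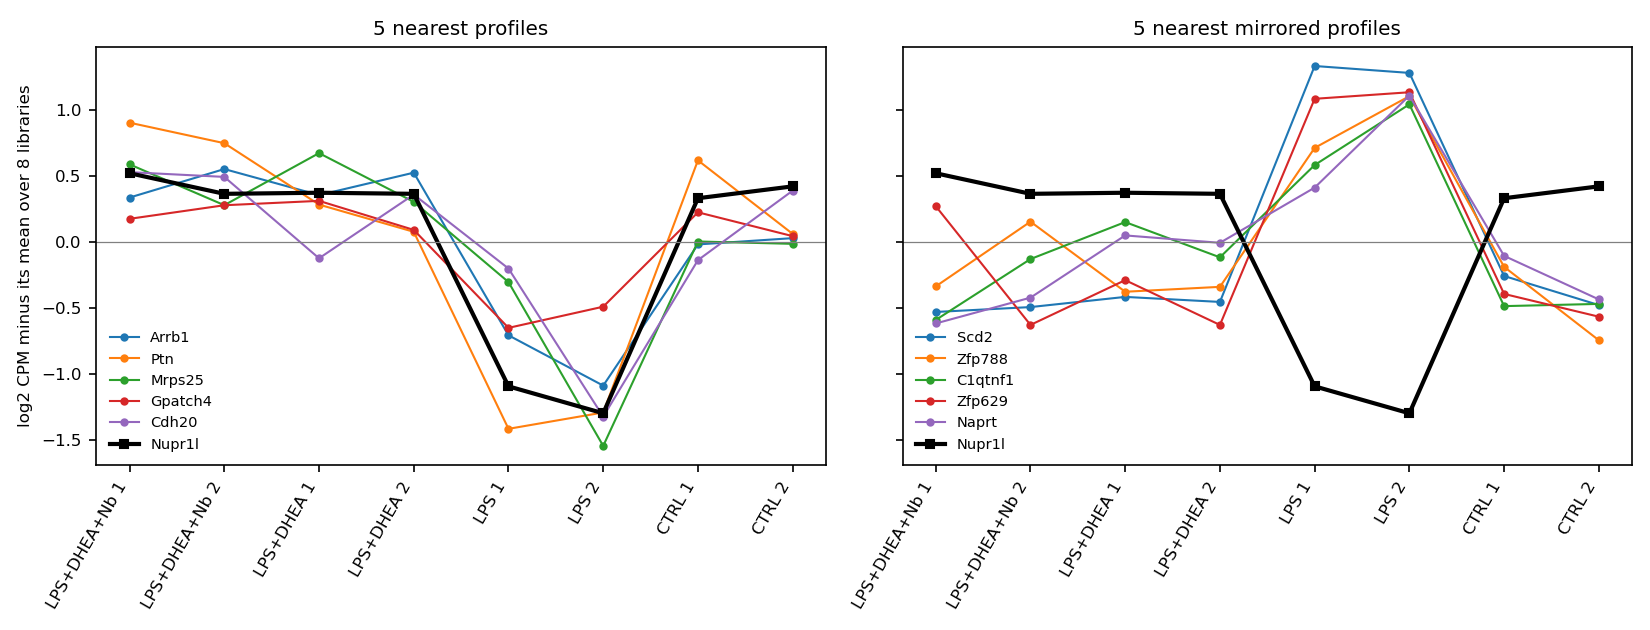
Centred log2 CPM over the 8 libraries of Nupr1l with the 5 nearest genes, and of the 5 genes nearest to its mirrored profile. Genes with Gm-number or Rik names, pseudogenes and genes without a symbol were left out. The genes were chosen by these profiles. The LPS libraries are the low points for Nupr1l, Arrb1 and Ptn and the high points for Scd2, whose distance of 0.107 is the smallest of those shown.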

How the data were processed

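RNA-seq values per gene of 8 mouse testis libraries were used. A KAPA Stranded kit was used for the libraries, per the labels' protocols. HISAT, featureCounts 1.5.0-p3 and the build GRCm38 are named, without their roles, per the submitters' processing notes. As deposited, the values are read as estimated counts (expected counts), a unit inferred from the values themselves. They are whole numbers, and 33.5% of those from 1 to 40 are multiples of 4, where even spacing gives 25%. Being whole, they were not changed by the rounding step before the fit. An alternative divided them by 4 and rounded the result. The sources used here state neither the strand setting nor how multiply mapped reads were handled. Depth was 61.3 to 64.5 M counts per library.

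With edgeR 4.0.16, filterByExpr at a minimum count of 10 and a minimum total of 15 kept 26414 genes, and libraries were scaled by TMM (factors 0.985 to 1.015). 1 quasi-likelihood model with 4 group means (glmQLFit and glmQLFTest) was fitted to the 8 libraries in R 4.3.3, with p-values adjusted by the Benjamini-Hochberg method over all genes tested in each of 7 comparisons. Each SE was obtained from the fitted log2 fold change and its F statistic. CPM uses TMM-scaled library sizes. Of the steps, only the edgeR fit was tested on simulated counts. Those counts had a common spread for all genes, so they do not cover genes that differ in spread. DESeq2 1.42.0, limma-voom (limma 3.58.1), other scalings and filters, fits of only the groups compared, a replicate block and leaving out each library were the alternatives.

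The members, lists and tests were chosen with earlier results of these data known. All 10 members are described. From each pathway list up to 2 genes with the smallest p per comparison were named, in LPS versus CTRL and the 2 treated groups versus LPS. The text gives a part of these, and the 5 genes nearest to the Nupr1l profile each way. Those 5 exclude genes with Gm-number or Rik names, pseudogenes and genes without a symbol. The list genes beyond 1 in size, Vkorc1l1, Nup62 and the chaperones in the closing section were chosen after their values were seen. Gene coordinates are 1-based, from GENCODE M21. Promoter windows are from RefSeq on GRCm38.p6.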

Additional observations from a re-analysis of the deposited data

How the results depend on the processing

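The count of members called kept its value of 0 in every comparison and alternative except in LPS versus CTRL, where it was 1 with counts divided by 4, 1 with DESeq2 and 1 with no filter on low counts, Nupr1 each time. Leaving out 1 library at a time kept it at 0, with Nupr1 at 2.19 to 3.21. The pathway lists had 0 genes called throughout, except for 1 with DESeq2 in LPS+DHEA versus CTRL (Atf3, adjusted p = 0.0171). The replicate numbers did not pair the libraries (correlations of deviations -0.0326 to 0.0312), and with the number as a block the members called stayed at 0 and all genes called in LPS versus CTRL were 62. Of 1166 member fold changes under alternatives, 45 had another sign than the reported one, the largest reported size among them being 0.52. In 5 of these the reported or the alternative value lay beyond 1 SE of 0. Xbp1 in LPS versus CTRL was -0.02 without CTRL replicate 2, within a range of -0.02 to 0.51 when 1 library was left out. Atf5 was -0.18 in LPS+DHEA versus CTRL without CTRL replicate 1 (range -0.18 to 0.22) and 0.06 in LPS+DHEA+Nb versus CTRL without CTRL replicate 2 (range -0.34 to 0.06). In LPS+DHEA+Nb versus LPS+DHEA, Asns was -0.12 without LPS+DHEA+Nb replicate 1 (range -0.12 to 0.14) and Hspa5 was -0.46 without LPS+DHEA+Nb replicate 2 (range -0.46 to 0.4). The causes were not tested. Of the 5 genes nearest to Nupr1l, 0 to 3 were shared when 1 library was left out. All genes called in LPS versus CTRL numbered 78, and 291 with DESeq2, 140 without a filter, 49 with limma-voom and 66 to 118 without 1 library. For LPS+DHEA versus LPS they numbered 5, and 35 with DESeq2, 10 without a filter, 20 with only the groups compared and 10 to 24 without 1 library. For LPS+DHEA+Nb versus LPS they numbered 45, and 207 with DESeq2, 87 without a filter, 19 with only the groups compared and 43 to 88 without 1 library. For LPS+DHEA+Nb versus LPS+DHEA they numbered 23, and 116 with DESeq2, 42 without a filter, 40 with only the groups compared, 11 with limma-voom and 16 to 64 without 1 library. For LPS+DHEA versus CTRL they numbered 40, and 182 with DESeq2, 80 without a filter, 61 with only the groups compared, 23 with limma-voom and 27 to 65 without 1 library. For LPS+DHEA+Nb versus CTRL they numbered 8, and 74 with DESeq2, 17 without a filter, 4 with limma-voom and 8 to 37 without 1 library. For LPS versus the mean of the other 3 groups they numbered 54, and 178 with DESeq2, 95 without a filter and 47 to 88 without 1 library. Depth limits Trib3, Nupr1, Gdf15 and Atf3, with at most 124 counts in any library, and with 2 libraries per group moderate changes can be missed.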

Other observations

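The chaperone Hspa5 varied 1.87-fold over the 8 libraries, while its high and low libraries were spread over all 4 groups. The other abundant ER chaperones varied less. Hsp90b1, the ER form of HSP90, lay between 485 and 564 CPM (1.16-fold), calreticulin (Calr) between 601 and 684 CPM (1.14-fold) and the disulfide isomerase gene Pdia6 between 165 and 190 CPM (1.15-fold). The 30 tested genes of the ATF6 and XBP1 programme varied 1.11 to 2.52-fold with a median of 1.17-fold. Of these, 29 varied less than Hspa5, and the exception was Wfs1, at 1.17 to 2.96 CPM. Nup62, which overlaps Atf5, varied 2.71-fold, between 96.2 and 260 CPM. These genes were picked after their values were seen, and no explanation was tested.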
